A study of Rattus norvegicus with 9 samples.

Results

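Transcript levels of 8 negative feedback genes of the Ras-ERK pathway were followed in primary Schwann cells of the rat, which are the ensheathing glia of peripheral nerve. The genes were the MAP kinase phosphatases Dusp4, Dusp5 and Dusp6, the Sprouty genes Spry1, Spry2 and Spry4, the Sprouty-related gene Spred3, and Phlda1. Every probe set annotated to exactly 1 of these genes was taken, which gave 11 of the 31042 probe sets tested. Dusp6 had 3 probe sets, Spred3 had 2 and the other 6 genes had 1 each, so the 11 probe sets are not 11 independent readings. The cells came from sciatic nerve and were transiently transfected with scrambled control oligonucleotides (Control RNAi), with oligonucleotides against Nf1 (NF1 RNAi), or with the latter in the presence of the MEK inhibitor U0126 (NF1 RNAi + U0126). All groups were therefore transfected cells, and RNA was taken 48 hours after transfection. Each group held 3 biological replicates, described as independent, on 1 array each, 9 arrays in all. Control RNAi cells with the inhibitor were not analysed here, so each inhibitor effect below was measured in NF1 RNAi cells, and neither the strain and age of the rats nor the dose of U0126 is given in the sources used here.

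Growth factor receptors switch on Ras, which activates the kinases Raf, MEK and ERK in turn, and neurofibromin, the Nf1 product, returns Ras to its inactive state. Active ERK induces genes whose products switch the pathway off again. The dual-specificity phosphatases remove the activating phosphates from MAP kinases, Sprouty and Spred proteins act between the receptor and Raf, and Phlda1, which encodes a pleckstrin homology-like domain protein, is a commonly used transcript readout of MEK activity. In Schwann cells this pathway is best known for its part in proliferation and in the switch between the myelinating and the immature or repair state.

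The sequences just upstream of the start sites of 4 genes are shown because their transcripts carried the clearest responses: Dusp5, which rose with NF1 RNAi, and Dusp6, Spry2 and Phlda1, which fell the most among the genes whose brightest probe set passed with U0126. Each is the 250 bases before a RefSeq start site in assembly GRCr8, 5′ to 3′ on the gene's strand. Capitals mark CCGGAA, a stricter form of the GGAA core of ETS sites, and the CArG box, the site of serum response factor, on either strand. GGAA outside CCGGAA was not marked. The intervals are chr1:262543524-262543773 (plus strand) for Dusp5, chr7:35979354-35979603 (plus) for Dusp6, chr15:89111927-89112176 (minus) for Spry2 and chr7:48853440-48853689 (plus) for Phlda1.
Dusp5: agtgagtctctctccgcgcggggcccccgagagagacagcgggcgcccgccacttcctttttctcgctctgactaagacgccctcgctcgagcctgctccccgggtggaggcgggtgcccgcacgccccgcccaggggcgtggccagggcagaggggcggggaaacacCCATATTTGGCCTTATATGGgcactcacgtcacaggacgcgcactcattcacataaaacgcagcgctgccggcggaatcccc
Dusp6: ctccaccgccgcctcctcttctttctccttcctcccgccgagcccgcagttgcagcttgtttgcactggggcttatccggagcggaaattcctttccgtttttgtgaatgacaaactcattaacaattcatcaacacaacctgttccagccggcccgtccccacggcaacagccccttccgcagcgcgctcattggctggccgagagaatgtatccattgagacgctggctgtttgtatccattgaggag
Spry2: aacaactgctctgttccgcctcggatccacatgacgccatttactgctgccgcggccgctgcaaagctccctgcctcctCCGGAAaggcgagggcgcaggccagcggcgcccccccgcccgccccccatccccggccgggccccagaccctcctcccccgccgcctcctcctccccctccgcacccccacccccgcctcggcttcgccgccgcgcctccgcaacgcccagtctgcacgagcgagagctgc
Phlda1: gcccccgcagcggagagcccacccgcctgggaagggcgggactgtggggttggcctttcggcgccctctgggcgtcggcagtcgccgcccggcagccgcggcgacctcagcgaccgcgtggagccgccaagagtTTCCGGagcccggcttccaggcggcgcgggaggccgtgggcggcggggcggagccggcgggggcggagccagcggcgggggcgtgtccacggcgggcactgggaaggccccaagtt

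The Dusp5 sequence held 2 CArG boxes back to back, 82 to 73 and 72 to 63 bases before the start. Of 33469 promoter windows of this length in the RefSeq table, 1.5% held at least 1 CArG box. CCGGAA stood 116 to 111 bases before the Phlda1 start and 171 to 166 bases before the Spry2 start, and 12.6% of all windows held it. The Dusp6 window held neither, and the table has a further Spry2 start whose window also held neither. In all, 8 windows of 7 members were searched, none being listed for Dusp4. CCGGAA was found in 3 of them, Spry4 being the other, and a CArG box in 1. The AP-1 site TGANTCA (6.34% of all windows), the cAMP response element TGACGTCA (1.59%) and the TATA box TATAAA (12.9%) were in none of the 8, and the SP1 site GGGCGG (30.5%) was in 6. The windows were rich in G and C, at 54.8% to 78.8%, against a median of 51.2% over all windows. No test was made of these matches, and they describe letters in these windows, not bound sites.

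Values below are array intensities on the linear scale, and fold changes are differences of log2(intensity + 1) ± the standard error of the limma fit, with n = 3 arrays per group. All p-values come from limma, adjusted by the Benjamini-Hochberg method over the 31042 probe sets, and a probe set passed when its adjusted p was under 0.05. The knockdown was seen in the Nf1 probe set, at 99.3, 95.6 and 70.0 in Control RNAi arrays, 41.1, 41.5 and 42.4 with NF1 RNAi and 42.5, 51.7 and 40.9 with NF1 RNAi + U0126. In each group replicate 1 lay farther from replicates 2 and 3 than these lay from each other, by the SD of log2 differences. Control RNAi stood out most, at 0.31 and 0.36 for the pairs holding replicate 1 and 0.15 for the remaining pair. The same values were 0.20, 0.24 and 0.15 in NF1 RNAi and 0.23, 0.26 and 0.17 in NF1 RNAi + U0126. Of 10 Schwann cell markers, the 8 analysed here (S100b, Sox10, Pmp22, Ngfr, Erbb3, Gfap, Cnp and Mbp) averaged log2 6 or more in every group, and their summed intensity was 35133 to 44509 in Control RNAi, 45426 to 47294 in NF1 RNAi and 41112 to 42688 in NF1 RNAi + U0126 arrays. Among them Pmp22 fell by 1.96 ± 0.35 with NF1 RNAi while S100b rose by 0.79 ± 0.07 and Cnp by 0.35 ± 0.09. With U0126 Gfap fell by 1.29 ± 0.32, Erbb3 by 1.08 ± 0.22 and S100b by 0.38 ± 0.07. Some of these calls were lost in the 9 fits that left out 1 array. That was so in 3 fits for Cnp with NF1 RNAi, and in 6 for Gfap and 2 for Erbb3 with U0126. The log2 6 mark was also reached in every group by 5 of 8 fibroblast markers. Dcn, Lum and Pdgfra were below it in every group, with Control RNAi means of 14.5, 7.45 and 36.7. The collagen genes Col1a1, Col1a2 and Col3a1, with Control RNAi means of 16145, 16112 and 5327, made up most of the list's sum. The fibroblast list's summed intensity was 36876 to 38822 in Control RNAi arrays, 29947 to 30885 in NF1 RNAi arrays and 21400 to 29748 in arrays of NF1 RNAi + U0126. The summed intensity of 6 neuron markers was 2280 to 4511, 521 to 1112 and 1395 to 1760 in the same order, that of 7 macrophage markers was 364 to 399, 421 to 436 and 454 to 510, and that of 5 endothelial markers was 129 to 146, 133 to 138 and 146 to 150. None of the 5 endothelial markers reached log2 6 in any group. In the same order of groups, 2, 3 and 3 of the macrophage markers and 2, 2 and 1 of the neuron markers did. No marker was at 0, but the lowest intensity on any array was 5.62, so this does not show detection. The part of other cell types in the results below was not tested, and in bulk RNA fewer cells of a type and less RNA per cell cannot be told apart.

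With U0126 against NF1 RNAi, 4 of the 8 genes fell at their brightest probe set, led by Dusp6 (9.78-fold). Phlda1 fell 3.61-fold, Spry2 2.67-fold and Dusp5 1.96-fold. With NF1 RNAi alone Dusp5 was the member that passed, rising 2.64-fold. Spry4 and Dusp4 passed in no comparison, Spry1 passed against Control RNAi alone, and the 2 probe sets of Spred3 disagreed. Against NF1 RNAi cells, 7 of the 11 probe sets fell and none rose (9 were lower and 0 higher at an unadjusted p under 0.05), where 5.58% of all probe sets fell and 4.45% rose. By gene, each taken at its brightest probe set, 4 of 8 fell and none rose, against 6.44% and 5.95% of 14213 genes. The median log2 fold change of the 11 was −0.97, against 0.02 over all probe sets. The members were chosen with these results known, so the counts describe them and test nothing.

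**Figure D1:**
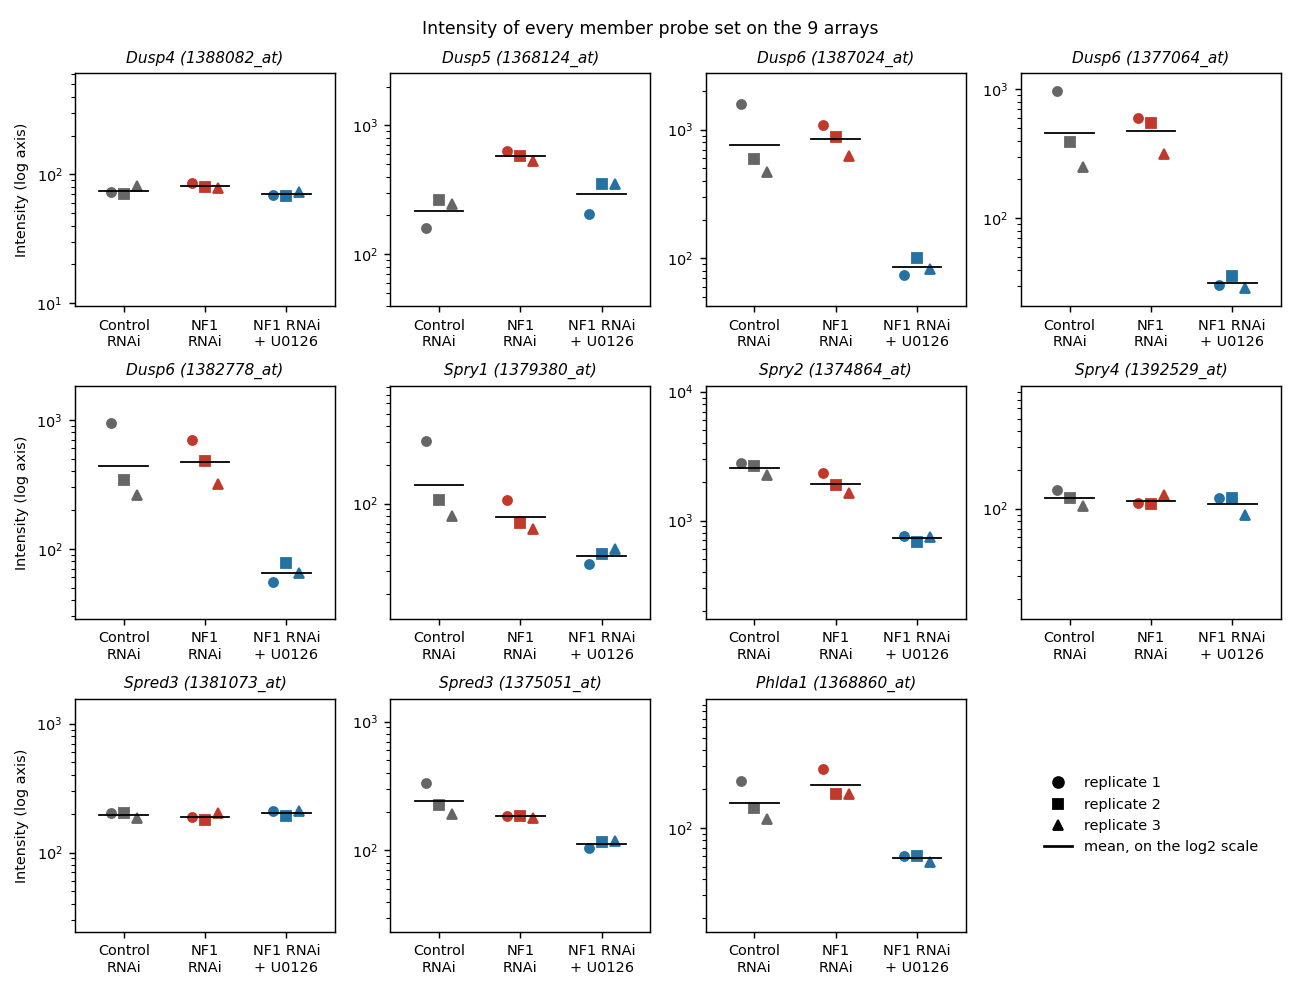
Intensity (log axis, 64-fold in each panel) of the 11 member probe sets on 9 arrays, with 1 point per array, the shape giving the replicate number and a line the mean on the log2 scale. All 3 Dusp6 panels show the NF1 RNAi + U0126 arrays well below both other groups, and Control RNAi replicate 1 is the highest control array in 8 of the 11 panels, with Dusp4, Dusp5 and the flat Spred3 probe set, where replicates 1 and 2 are level, as the exceptions.

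Dusp6 encodes a cytoplasmic phosphatase selective for ERK. At its brightest probe set, 1387024_at, intensity was 1571, 595 and 469 in Control RNAi replicates 1 to 3, 1078, 884 and 628 with NF1 RNAi, and 74.6, 101 and 82.5 with NF1 RNAi + U0126. The inhibitor arrays lay below both other groups, which overlapped each other. The log2 fold change with U0126 was −3.29 ± 0.39 against NF1 RNAi (adjusted p = 0.00105) and −3.14 ± 0.39 against Control RNAi (adjusted p = 0.000386). The other probe sets gave the same picture. Intensity at 1377064_at was 976, 390 and 248 in Control RNAi, 601, 553 and 316 with NF1 RNAi and 30.5, 36.0 and 28.6 with the inhibitor, a log2 fold change of −3.86 ± 0.44 from NF1 RNAi (adjusted p = 0.000785). At 1382778_at it was 952, 341 and 262, then 694, 479 and 318, then 54.9, 77.1 and 64.9, a log2 fold change of −2.84 ± 0.44 (adjusted p = 0.00411). With the inhibitor 1377064_at lay at percentiles 24.0 to 28.7 of its arrays. Ranked by log2 fold change among all 31042 probe sets, the 3 Dusp6 probe sets were the 2nd, 6th and 13th lowest with U0126 against NF1 RNAi.

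NF1 RNAi alone left Dusp6 within the spread of the control arrays. The log2 differences from Control RNAi were 0.15 ± 0.39, 0.05 ± 0.44 and 0.10 ± 0.44 (adjusted p = 0.85, 0.96 and 0.911). For 1387024_at the 95% interval ran from −0.74 to 1.04, so a doubling was not excluded by it. Arrays of the same replicate number went different ways, with a log2 difference of −0.54 in replicate 1 and of 0.57 and 0.42 in replicates 2 and 3. Without Control RNAi replicate 1, the highest control array, the difference was 0.67 (adjusted p = 0.062). That fit kept NF1 RNAi replicate 1, the highest array of its own group, so it was not balanced by replicate number. Leaving out Control RNAi replicate 3, the lowest control array, gave −0.20 (adjusted p = 0.808). It was −0.03 without Control RNAi replicate 2 and −0.03 without NF1 RNAi replicate 1. With the highest control array left out, Dusp6 in the inhibitor group fell by 2.62 from Control RNAi in place of −3.14 (adjusted p = 5.3e-05).

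Dusp5, the nuclear phosphatase selective for ERK, was 161, 266 and 244 in Control RNAi arrays, 628, 579 and 531 with NF1 RNAi, and 207, 352 and 352 with NF1 RNAi + U0126. All NF1 RNAi arrays were above all arrays of the other groups. The rise with NF1 RNAi was 1.40 ± 0.23 (adjusted p = 0.00302), and it was 1.96, 1.12 and 1.12 between arrays of replicate number 1, 2 and 3. It was the 122nd highest log2 fold change of all probe sets in that comparison. U0126 lowered Dusp5 by 0.97 ± 0.23 (adjusted p = 0.0304). That call was lost when NF1 RNAi replicate 1, 2 or 3 or NF1 RNAi + U0126 replicate 1 was left out (adjusted p = 0.0929, 0.101, 0.0698 and 0.0615), with log2 fold changes of −0.71 to −1.03. Against Control RNAi the remaining difference was 0.43 ± 0.23 (adjusted p = 0.21, 95% interval −0.10 to 0.96). Without NF1 RNAi + U0126 replicate 1, the lowest inhibitor array, it was 0.69 and passed (adjusted p = 0.0328).

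Dusp4, a nuclear phosphatase that acts on ERK and also on JNK and p38, changed little. Its intensity was 72.8, 71.0 and 81.0 in Control RNAi, 86.2, 79.7 and 79.1 with NF1 RNAi and 69.5, 67.4 and 73.3 with the inhibitor, at percentiles 43.0 to 48.3 of the arrays. The NF1 RNAi and inhibitor arrays did not overlap, but the log2 difference of −0.22 ± 0.07 did not pass (adjusted p = 0.099). Its 95% intervals reached from −0.38 to −0.06 in that comparison and from −0.04 to 0.29 for NF1 RNAi against Control RNAi.

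Spry2, a Sprouty protein that restrains receptor signalling to Ras and Raf, was 2796, 2637 and 2241 in Control RNAi arrays, 2352, 1873 and 1649 with NF1 RNAi and 755, 682 and 742 with NF1 RNAi + U0126. Every inhibitor array was below every other array. The log2 fold change with U0126 was −1.41 ± 0.13 from NF1 RNAi (adjusted p = 0.000311) and −1.81 ± 0.13 from Control RNAi (adjusted p = 2e-05). With NF1 RNAi alone the log2 difference was −0.39 ± 0.13 (adjusted p = 0.064), the direction opposite to that of Dusp5. It was below 0 in all 3 replicate numbers (−0.25, −0.49 and −0.44), and it passed with the replicate number as a block (adjusted p = 0.0195). It also passed without Control RNAi replicate 3 (−0.49, adjusted p = 0.0418) and without NF1 RNAi replicate 1 (−0.53, adjusted p = 0.0151).

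Spry1, a further Sprouty gene, was 308, 107 and 80.7 in Control RNAi, 107, 71.2 and 63.4 with NF1 RNAi and 33.8, 40.7 and 44.7 with NF1 RNAi + U0126. The inhibitor arrays were below all the others, and Control RNAi replicate 1 was well above the rest. The fall from Control RNAi to the inhibitor group passed, at −1.79 ± 0.42 (adjusted p = 0.0116), and was −1.22 without Control RNAi replicate 1 (adjusted p = 0.00335). The 2 steps that make it up did not pass: −0.81 ± 0.42 with NF1 RNAi (adjusted p = 0.232) and −0.97 ± 0.42 with U0126 (adjusted p = 0.214). Without Control RNAi replicate 1 the U0126 difference was the same and passed (adjusted p = 0.0122), while the NF1 RNAi difference was −0.24 (adjusted p = 0.523). That fit kept NF1 RNAi replicate 1, the highest array of its own group.

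Spry4, often used with Dusp6 as a readout of ERK activity, passed in none of the 3 comparisons. Its intensity was 140, 120 and 105 in Control RNAi, 110, 109 and 127 with NF1 RNAi, and 120, 121 and 88.8 with NF1 RNAi + U0126. The 3 groups overlapped throughout. The log2 difference with U0126 was −0.08 ± 0.14 (adjusted p = 0.822), and its 95% interval, −0.39 to 0.24, did not reach the falls of Dusp6, Phlda1 or Spry2. Only 1 probe set carried this gene, at percentiles 48.6 to 56.7 of the arrays, and how well it reports the transcript was not tested.

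Spred3 belongs to the Sprouty-related family, of which other members bring neurofibromin to the membrane. Its brighter probe set, 1381073_at, was flat, at 203, 203 and 184 in Control RNAi, 188, 180 and 203 with NF1 RNAi and 211, 192 and 209 with the inhibitor (log2 difference with U0126 0.10 ± 0.07, adjusted p = 0.503). The other, 1375051_at, was 334, 226 and 191, then 187, 187 and 180, then 105, 117 and 118, with no overlap between any groups. It fell by 0.70 ± 0.17 with U0126 from NF1 RNAi (adjusted p = 0.031) and by 1.10 ± 0.17 from Control RNAi (adjusted p = 0.00122). The first of these calls was lost when any 1 of the 6 arrays compared was left out (adjusted p from 0.0744 to 0.106), with log2 fold changes of −0.65 to −0.73. With NF1 RNAi alone it differed by −0.40 ± 0.17 (adjusted p = 0.143), and without Control RNAi replicate 3 this passed (−0.57, adjusted p = 0.0299). With Control RNAi replicate 1, the highest array, left out it was −0.17 (adjusted p = 0.245). Whether the probe sets read different transcripts was not tested, so no single direction is given for Spred3.

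Phlda1 was 230, 141 and 117 in Control RNAi arrays, 287, 183 and 184 with NF1 RNAi, and 60.5, 60.2 and 54.4 with NF1 RNAi + U0126. The inhibitor arrays were close together and below all others, while the other groups overlapped. The log2 fold change with U0126 was −1.85 ± 0.24 from NF1 RNAi (adjusted p = 0.00173) and −1.41 ± 0.24 from Control RNAi (adjusted p = 0.00231). With NF1 RNAi alone the log2 difference was 0.44 ± 0.24 (adjusted p = 0.26), above 0 in each replicate number (0.31, 0.38 and 0.64). It passed without Control RNAi replicate 1, at 0.72 (adjusted p = 0.024), in a fit that kept NF1 RNAi replicate 1, the highest array of its own group. The difference was 0.24 without Control RNAi replicate 3 (adjusted p = 0.593) and 0.23 without NF1 RNAi replicate 1 (adjusted p = 0.599).

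**Figure D2:**
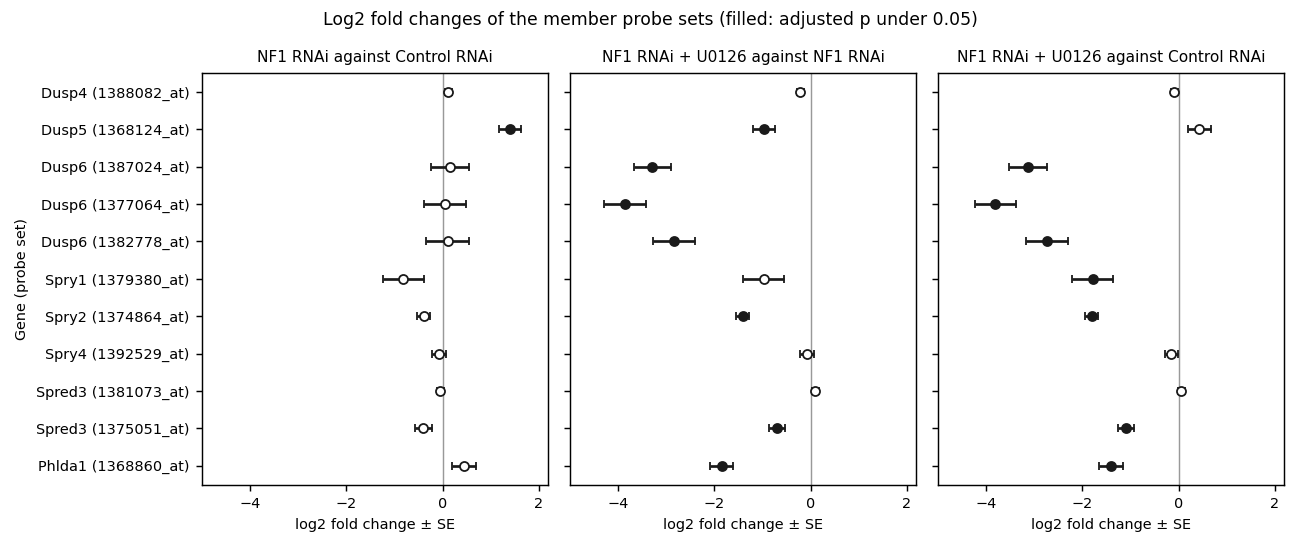
Log2 fold change ± SE of the 11 member probe sets in the 3 comparisons, filled where the adjusted p was under 0.05. The single filled point with NF1 RNAi is Dusp5, and the 7 filled points with U0126 against NF1 RNAi all lie to the left of 0.

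Over the 11 probe sets, NF1 RNAi against Control RNAi gave 1 rise and no fall (1 higher and 2 lower at an unadjusted p under 0.05). Of all probe sets 20.4% passed in that comparison, 10.6% higher and 9.84% lower, and the members' 1 of 11 is no larger a share than that. By gene 1 of 8 rose, where 12.1% of genes rose and 12.4% fell. The arrays of these groups stood apart for Dusp5, higher, and for 1 Spred3 probe set, lower, where 19.3% and 16% of all probe sets did. Their median was 0.05, against 0.02 over all. NF1 RNAi + U0126 against Control RNAi gave 7 falls and no rise (7 lower and 0 higher at an unadjusted p under 0.05), where 28.1% of all probe sets passed, 13.9% lower and 14.2% higher. By gene 4 of 8 fell, against 16.9% of genes lower and 16.6% higher. The median over the 11 was −1.41, against 0.05 over all. The 7 that fell here were the 3 of Dusp6, Spry1, Spry2, Phlda1 and the second Spred3 probe set. Those that fell against NF1 RNAi held Dusp5 in place of Spry1. The inhibitor group serves in both comparisons, so these are not separate evidence. In 9 of 11 probe sets every inhibitor array was below every NF1 RNAi array, where 14.0% of all probe sets were below and 14.6% above. In 7 it was below every Control RNAi array, where 18.2% of all probe sets were below and 22.8% above.

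**Figure D3:**
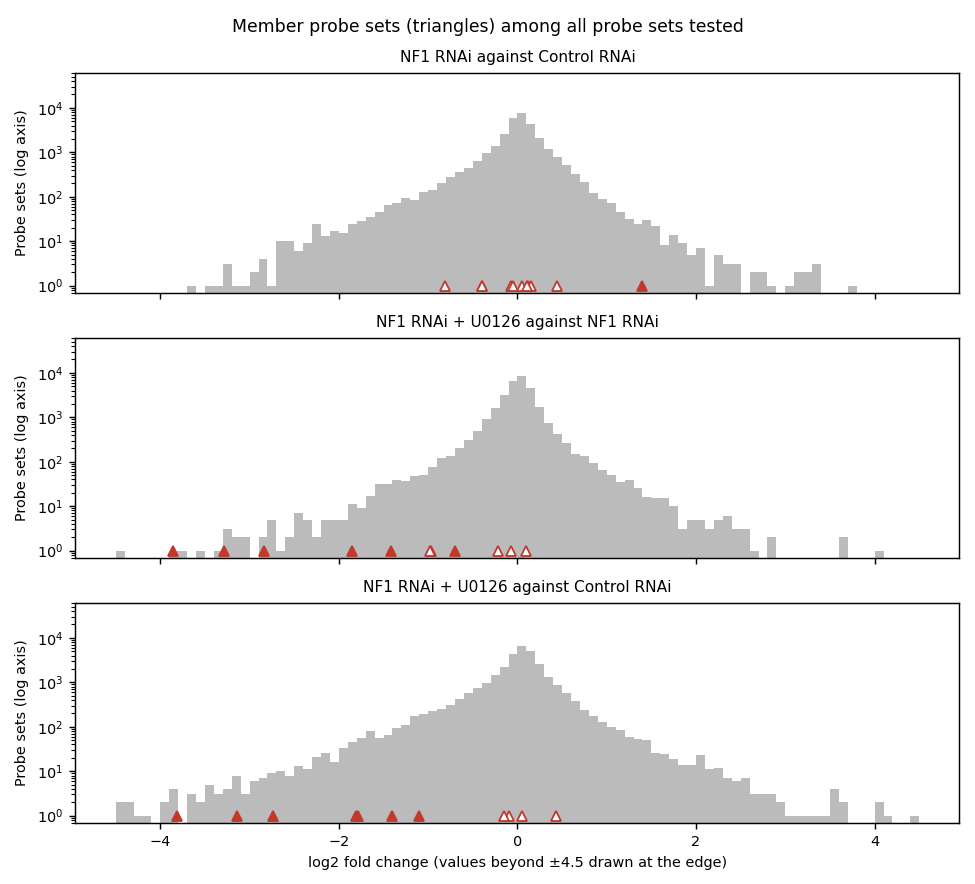
Log2 fold changes of all 31042 probe sets (grey, number per bin on a log axis) with the 11 member probe sets as triangles, filled where the adjusted p was under 0.05. The Dusp6 triangles lie in the far left tail with U0126 and near 0 with NF1 RNAi alone.

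Other genes whose profile was most like a member's were found by the root mean square difference of log2 values over the 9 arrays, each gene centred on its own mean. Nearest to Dusp6 was Itgb3, an integrin subunit, at 0.30, against a root mean square of 1.59 for Dusp6 about its own mean, followed by Cd200 (0.47) and Celf4 (0.48). The log2 fold changes of Itgb3 were −0.31 with NF1 RNAi, −2.76 with U0126 and −3.07 between the inhibitor group and Control RNAi. Nearest to Dusp5 were Cndp1 (0.18), Peli2 (0.19) and Lgals2 (0.20), against 0.65 for Dusp5 itself. Nearest to Spry2 were Fxyd5 (0.12), Basp1 (0.19) and Gng2 (0.19), against 0.79. Phlda1 was nearest to the sphingosine kinase gene Sphk1 (0.17), Mapkapk3 (0.22), which encodes a kinase downstream of MAP kinases, and Lrrfip1 (0.23), against 0.84. Spry1 was nearest to Mmd (0.25), the metalloprotease gene Mmp16 (0.29) and the ETS factor gene Etv5 (0.30), against 0.90. Dusp4, Spry4 and the brighter Spred3 probe set varied little (0.11, 0.17 and 0.08), and their neighbours, led by Zbtb1 (0.03), Pcyt1b (0.07) and Sox15 (0.03), varied as little. No member was among the 3 genes nearest to another.

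The other MAP kinase phosphatases gave few calls. Of the 6 analysed here (Dusp1, Dusp2, Dusp7, Dusp8, Dusp9 and Dusp10), none passed with U0126 against NF1 RNAi in limma, where 12.4% of genes passed. At an unadjusted p under 0.05, 2 were lower and 0 higher. The highest log2 fold change there was that of Dusp10, at 0.80 ± 0.39 (adjusted p = 0.269), with every inhibitor array above every NF1 RNAi array. The smallest p was that of Dusp1, a nuclear phosphatase of early response, at −0.48 ± 0.15 (adjusted p = 0.0799), and without Control RNAi replicate 1 there was 1 rise and 1 fall on the list, and without all replicate 1 arrays 1 rise and 2 falls. With NF1 RNAi Dusp1 rose by 0.67 ± 0.15, the 1 of 6 that passed, where 24.6% of genes passed. Against Control RNAi, where 33.5% of genes passed, Dusp10, which prefers JNK and p38, was higher in the inhibitor group by 1.34 ± 0.39 and Dusp7, an ERK phosphatase of the cytoplasm, fell by 0.33 ± 0.07. The Dusp10 difference was 0.78 without Control RNAi replicate 1 (adjusted p = 0.00375), and its call was lost without any 1 of the 3 inhibitor arrays (1.26 to 1.38, adjusted p from 0.0643 to 0.0909). The list's medians were 0.15, −0.04 and 0.18 in the 3 comparisons, against 0.02, 0.02 and 0.04 over all genes.

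Among 10 atypical dual-specificity phosphatases, small enzymes without a MAP kinase docking domain, Dusp14 rose at each step. It rose by 0.95 ± 0.11 with NF1 RNAi, by a further 0.67 ± 0.11 with U0126, and stood 1.62 ± 0.11 above Control RNAi. Dusp19 rose with NF1 RNAi (0.27 ± 0.06) and Dusp18 fell with U0126 (−0.30 ± 0.07). The counts were 2 rises and no fall with NF1 RNAi, 1 rise and 1 fall with U0126, and 3 rises and no fall against Control RNAi, the last being Dusp14, Dusp19 (0.47 ± 0.06) and Dusp3 (0.20 ± 0.07). These shares, 2, 2 and 3 of 10, stand beside 24.6%, 12.4% and 33.5% of all genes. With the replicate number as a block Dusp3 did not pass (adjusted p = 0.0544), nor did it in 8 of the 9 fits that left out 1 array. Dusp18 did not pass in 4 of 9. At an unadjusted p under 0.05, 1 gene was lower with NF1 RNAi and 0 against Control RNAi. Without all replicate 1 arrays there was 1 rise and no fall with NF1 RNAi, and the same with U0126. The medians were 0.08, 0.04 and 0.08.

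A further list joined Spry3, the receptor-level inhibitors Errfi1, Lrig1, Lrig3, Cbl and Cblb, and the Phlda genes Phlda2 and Phlda3. Of these 8 genes, 1 rose and 2 fell with NF1 RNAi. Errfi1, an inhibitor of the EGF receptor family, rose by 0.97 ± 0.12. The ubiquitin ligase gene Cbl fell by 0.33 ± 0.09 and Spry3 by 0.48 ± 0.13. Without Control RNAi replicate 1, and without all replicate 1 arrays, there was 1 rise and no fall. With U0126, Cblb (0.49 ± 0.10) and Phlda3 (0.40 ± 0.10) rose and Cbl fell by 0.51 ± 0.09, and the block added a fall of Errfi1 (−0.39, adjusted p = 0.0446). Against Control RNAi Cbl fell by 0.84 ± 0.09, Spry3 fell by 0.58 ± 0.13 and Errfi1 was higher by 0.58 ± 0.12. The 3 of 8 that passed in each comparison stand beside 24.6%, 12.4% and 33.5% of all genes. Of the 9 fits that left out 1 array, the call was lost in 4 for Cbl and 5 for Spry3 with NF1 RNAi, and in 2 for Cblb and 6 for Phlda3 with U0126. The list's medians were −0.22, 0.01 and 0.02.

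The list of ERK target genes was the longest of the 6 and gave the most calls with the inhibitor. Whether active ERK raises each of them in Schwann cells was not tested. As shares, 10 of 24 against NF1 RNAi stands beside 3 of 8 in the list just above. Against Control RNAi, 11 of 24 stands beside 4 of 7 other MAP kinase genes. With U0126 against NF1 RNAi, 10 of 24 ERK target genes fell, with no rise (14 lower and 0 higher at an unadjusted p under 0.05), where 6.44% of genes fell, and the median was −0.64. With the block 13 fell, Areg, Etv5 and Ier3 being added. The largest falls among those that passed were in Egr1 (−3.56 ± 0.44), Ccnd1 (cyclin D1, −2.42 ± 0.24), the EGF family ligand gene Hbegf (−1.39 ± 0.28) and Myc (−1.24 ± 0.19). Etv5, which did not pass, was at −1.51 (adjusted p = 0.0625). With NF1 RNAi 4 rose and 4 fell, with a median of −0.01, led by Egr2 (−1.02 ± 0.14), Hbegf (−0.99 ± 0.28), Hmga1 (0.87 ± 0.11) and Myc (−0.73 ± 0.19). Without Control RNAi replicate 1 the counts were 6 and 3, and with the block 5 and 4. Of all genes 12.1% rose and 12.4% fell there. Of the 9 fits that left out 1 array, the NF1 RNAi call was lost in 6 for Hbegf (−0.70 without Control RNAi replicate 1) and in 3 for Myc, and the U0126 call in 4 for Hbegf. Against Control RNAi 1 rose and 10 fell, with a median of −0.54, among them Egr1 (−4.70 ± 0.44), Hbegf (−2.37 ± 0.28), Myc (−1.97 ± 0.19) and Etv5 (−1.91 ± 0.44). Etv5 was at −1.26 without Control RNAi replicate 1, and the block gave 1 rise and 11 falls. Of all genes 16.6% rose and 16.9% fell.

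Transcripts of the cascade itself gave 1 call with the inhibitor. Of 17 Ras-ERK cascade genes, 1 rose with U0126 and none fell (2 higher and 2 lower at an unadjusted p under 0.05). The gene that passed was Map2k2, which encodes a MEK (0.43 ± 0.08), while without Control RNAi replicate 1 there was 1 rise and 1 fall. With NF1 RNAi 3 rose and 4 fell, led by Nras (−1.65 ± 0.13), the kinase gene Rps6ka3 (−0.60 ± 0.13), Shoc2 (−0.47 ± 0.07) and the Ras activator gene Sos1 (0.44 ± 0.06). Against Control RNAi 2 rose and 3 fell, and with the replicate number as a block 3 rose and 5 fell. The 7, 1 and 5 of 17 that passed stand beside 24.6%, 12.4% and 33.5% of all genes. The medians were −0.04, −0.03 and 0.07. Among 7 genes of JNK, p38 and other MAP kinases, Mapk12 fell by 0.88 ± 0.16 and Mapk9 rose by 0.57 ± 0.14 with NF1 RNAi. Mapk7 alone passed with U0126 (−0.24 ± 0.06). There the block gave 3 falls and no rise, as did leaving out Control RNAi replicate 1, and leaving out all replicate 1 arrays gave 2 falls. Against Control RNAi 4 fell and none rose (4 lower and 0 higher at an unadjusted p under 0.05): Mapk12 (−1.17 ± 0.16), Mapk14 (−0.51 ± 0.16), Mapk11 (−0.32 ± 0.11) and Mapk7 (−0.31 ± 0.06). The 2, 1 and 4 of 7 that passed have the same shares of all genes beside them. Of the 9 fits that left out 1 array, the call was lost in 2 for Mapk9, 6 for Mapk7 with U0126, and 6 for Mapk14 and 8 for Mapk11 against Control RNAi. This list's medians were 0.00, −0.24 and −0.31.

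**Figure D4:**
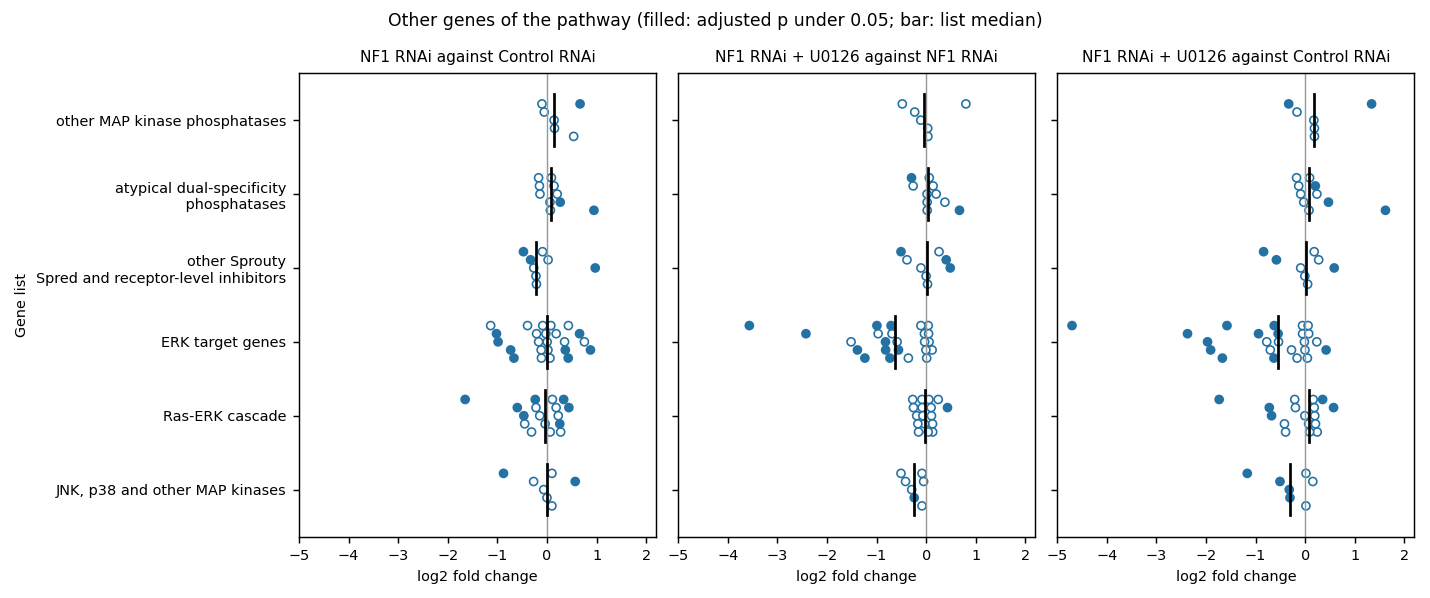
Log2 fold changes of the other genes of the pathway by list, 1 circle per gene at its brightest probe set, filled where the adjusted p was under 0.05, with a bar at the list's median. With U0126 against NF1 RNAi the ERK target genes spread to the left (median −0.64). The 6 other MAP kinase phosphatases lie on both sides of 0, from −0.48 to 0.80 (median −0.04).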

How the data were processed

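The deposited values are linear intensities, 1 for each probe set on each array. The authors used RMA, per the submitters' processing notes (version not stated), and the quantile step in RMA makes arrays alike in overall signal. Array medians lay between 95.0 and 97.1, and the number of arrays limits the precision. From the 31099 probe sets, 57 manufacturer controls were left out. GEO's platform annotation paired 20826 of the rest with 1 gene, 436 with several and 9780 with none, and symbols were updated through RefSeq's GRCr8 gene table (20758 by gene ID). Groups were compared on log2(value + 1), which understates changes of dim probe sets, with limma 3.58.1 in R 4.3.3 (group means model over 9 arrays, 6 residual degrees of freedom, eBayes). The fit was tested on simulated data. Genes in lists are represented by their brightest probe set.

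Same-numbered arrays of different groups deviated together from their group means in all 9 pairs (r over probe sets from 0.14 to 0.59, against −0.48 to 0.37 for different numbers). The labels do not say what a number marks. Results are given without the number in the model. A model with the number as a block was run as an alternative and is printed where it changed a member's call or a list's count. Nothing in the labels names separate animals, so p-values measure the spread between these cultures.

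The members, the gene lists and the tests were chosen with earlier results of these data known. Named were every member probe set, Nf1, up to 4 passing genes per list and comparison with the largest change (or the smallest p where none passed), and the 3 genes most like each member. Alternatives were the block, a filter that keeps probe sets at log2 6 on 3 or more arrays, median centring, quantile normalization, no pseudocount, a fit to only 2 groups, array weights, robust eBayes with an intensity trend, adjusted p under 0.01, a 2-fold limit, 1 probe set a gene, and leaving out each array or all replicate 1 arrays. For the lists and their genes, the block and the arrays left out were added after seeing the data. Figures were drawn with matplotlib 3.10.9.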

Additional observations from a re-analysis of the deposited data

How the results depend on the processing

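The count of member probe sets passing with U0126 against NF1 RNAi (7 of 11) stayed between 5 and 8 under every alternative but 1, and against Control RNAi (7 of 11) between 6 and 8. The exception was 1 probe set a gene, where 4 of 8 passed in each. For NF1 RNAi against Control RNAi the count was 1, and leaving out 1 array gave 1 to 3. It was 2 with the replicate number as a block and 2 with the low-value filter (Spry2 added in both), 4 without all replicate 1 arrays (Phlda1, Spry1 and Spry2 added) and 5 with array weights. Leaving out 1 array gave 5 to 8 in the second comparison and 7 to 8 in the third. The block changed no other call of a member. No called member changed direction. Of 47 named calls in the pathway lists, 33 were kept in each of the 9 fits that left out 1 array. Over all probe sets, array weights raised the calls from 6338 to 11541, from 3113 to 4742 and from 8710 to 13461. In the second comparison leaving out NF1 RNAi replicate 2 or 3 or NF1 RNAi + U0126 replicate 2 lowered them to 1676, 2049 and 1897. The stricter threshold of 0.01 left 3365, 1363 and 5463, and the 2-fold limit 909, 513 and 1521. With 3 arrays a group, small differences such as those of Dusp4 and Spry4 did not pass, and this does not show that they are absent.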
